A study of Mus musculus with 5 samples.

Results

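Amino acid transporters were followed in lymphatic endothelial cells (LECs), which form the walls of lymph vessels and of the sinuses that carry lymph through a node. They were taken as all protein-coding genes whose symbols begin with Slc1a, Slc3a, Slc6a, Slc7a, Slc36a, Slc38a or Slc43a and a digit, which gave 60 of the 27843 genes in the count table. Of these, 19 belonged to the Slc6a family, 15 to Slc7a, 10 to Slc38a, 7 to Slc1a, 4 to Slc36a, 3 to Slc43a and 2 to Slc3a. The prefixes are wider than the name: Slc6a6 carries taurine, Slc6a8 carries creatine, several other Slc6a members carry neurotransmitters, Slc43a3 carries purine nucleobases, and Slc7a6os is not a transporter but lies next to Slc7a6. Slc38a8, Slc6a7, Slc6a11 and Slc7a12 were not analysed here.

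RNA was sequenced from LECs of 8-week-old C57BL/6 mice. 2 libraries came from knockout mice, labelled Ccl19 Cre Rankl flox/flox, in which Cre is driven by Ccl19 and so acts in lymph node stromal cells that express that chemokine. 3 libraries came from control littermates, labelled Rankl flox/flox, which carry the same floxed alleles without Cre. RANKL is a cytokine that LECs sense through the receptor RANK. The comparison addresses how LEC expression differs when the floxed gene is targeted in stromal cells that express Ccl19. Cells without Cre keep the gene, and the presence of Cre also differs between the groups. The number of animals behind each library is not stated in the labels, so p-values measure the spread between these 5 libraries, which may in part be technical. The sort kept cells with CD31 and podoplanin on their surface and without the blood cell markers CD45 and TER119.

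Library totals ranged from 52839375 to 70171307 counts. Gate markers were as labelled, with CD31 high and CD45 low: Pecam1 (CD31) stood at 1329 ± 25.4 CPM in knockouts (SD, n = 2) and 1330 ± 8.43 CPM in controls (SD, n = 3), and Ptprc (CD45) at 2.64 ± 0.351 CPM in knockouts and 2.46 ± 0.294 CPM in controls. Pdpn (podoplanin), the other gate marker, stood at 112 ± 17.2 CPM in knockouts and 96.5 ± 7.74 CPM in controls (edgeR, adjusted p = 0.31). CPM, the usual scaled count, sets a gene's reads against the TMM-scaled total of its library. Tnfrsf11a, the gene of RANK, stood at 225 ± 44.1 CPM in knockouts and 220 ± 0.635 CPM in controls. Tnfsf11, the gene of RANKL, had 9 and 0 reads in knockout libraries 1 and 2 and 27, 13 and 9 reads in control libraries 1, 2 and 3; the deletion lies in other cells, so these reads do not check the genotype. In sorted pools, fewer cells of a type and less RNA per cell cannot be told apart. Markers of the sinus floor were lower and markers of blood endothelium higher in knockouts: the summed level of 7 floor markers was 5349 to 7082 CPM in knockouts and 9653 to 11612 CPM in controls, and that of 18 blood endothelial markers was 6941 to 7209 CPM in knockouts and 5359 to 5490 CPM in controls. The summed level of 10 lymphatic endothelial markers was 13242 and 11356 CPM in knockouts and 11823 to 12908 CPM in controls. No marker of these 3 lists was at 0 in every library. The marker lists were chosen with earlier results of these data known, so their direction is no independent reading of cell content. Of the floor markers, 0 rose and 4 fell, of the blood endothelial markers, 9 rose and 0 fell, and of the lymphatic markers, Ccl21a and Mmrn1 rose and Prox1 and Stab2 fell (edgeR quasi-likelihood test with Benjamini-Hochberg adjustment). The called genes were 57.1% of the floor, 50% of the blood endothelial and 40% of the lymphatic list, against 7.24% of all genes tested. The lymphatic identity gene Prox1 had 884 and 852 CPM in knockouts, against 1577, 1384 and 1416 CPM in controls. Genes of all 3 lists differed between the same groups as every transporter call below, and their part in those calls was not tested. The summed level of 16 fibroblastic and mural markers was 1207 CPM in knockout 1 and 426 to 592 CPM in the other 4 libraries, and that of 17 leukocyte markers was 406 and 538 CPM in knockouts and 297.1 to 555.1 CPM in controls, with Ly6g at 0.

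Amino acids cross membranes largely through carriers. System A carriers of the Slc38 family pull small neutral amino acids such as alanine and glutamine into the cell with sodium. Light chains of the Slc7 family exchange one amino acid for another and reach the surface only when bound to a heavy chain, Slc3a2 (also known as CD98 or 4F2hc). Other families carry cationic amino acids, glutamate, or amino acids across the lysosomal membrane, where their level is sensed by the kinase complex mTORC1. Shortage of amino acids switches on the transcription factor ATF4, which binds C/EBP-ATF composite sites in carrier genes of several cell types.

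Promoter windows from RefSeq (GRCm38.p6, the build that mm10 names) were matched by symbol to 44 of the 60 members, and Slc38a1 and Slc6a6 were not among them. The 250 bases before each start were searched on both strands for TGATGNAA, the C/EBP-ATF composite site, and for CACGTG, the E-box. CACGTG reads the same on both strands, and no member's window held both motifs. TGATGNAA was found in 3 of the 44 members (6.82%), against 3.91% of 27025 genes with a window. CACGTG was found in 9 of the 44 (20.5%), against 6.86% of all genes. A gene was counted if any of its windows held the motif, and genes differ in their number of windows. Counted by window, TGATGNAA was in 6.15% of members' windows and 3.45% of all windows, and CACGTG in 13.8% and 6.02%. The sequences below are those of members with both a called difference and a window, and of Slc7a11, which holds the composite site more than once within the same window. Slc7a7, not printed here, held the composite site in different windows, at 141 bases before the start in one and at 243 in another. Capitals mark the motifs.

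Slc7a11, chr3:50443652-50443681, minus strand: gcTGATGCAAacctggagaatTTGCATCAt
Slc43a1, chr2:84840247-84840276, plus strand: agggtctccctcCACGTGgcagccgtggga
Slc38a4, chr15:97055957-97056056, minus strand: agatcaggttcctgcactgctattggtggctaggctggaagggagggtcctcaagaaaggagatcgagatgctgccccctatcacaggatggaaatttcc
Slc7a1, chr5:148399905-148400004, minus strand: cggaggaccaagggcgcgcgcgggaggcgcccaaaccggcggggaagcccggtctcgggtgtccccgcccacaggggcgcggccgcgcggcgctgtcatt

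Slc7a11 held TGATGNAA at 66 and at 47 bases before its RefSeq start, on opposite strands, and Slc43a1 held CACGTG at 64 bases before a RefSeq start that lies inside the annotated gene. The stretches of Slc38a4 and Slc7a1 held neither motif, which says only that these letters are not in these windows. Both genes have further windows at other RefSeq starts, not printed here, which held neither motif. Each printed stretch is a part of the 250 bases searched. A match is a description of the letters and not a binding site. Among the tested members with CACGTG, Slc43a1 fell, while Slc38a7, Slc36a1 and Slc7a14 did not pass the test.

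LECs of the node carried a few of these mRNAs at high level and most at low level. Levels of different genes are compared here as RPKM, the CPM divided by the length in kilobases of all annotated exons of the gene. 8 of the 60 members averaged over 10 RPKM across the 5 libraries, and 21 averaged over 1 RPKM. Slc38a4, a system A carrier, was first with 205 RPKM, followed by Slc43a3 with 124 RPKM, the heavy chain Slc3a2 with 114 RPKM and the system A carrier Slc38a2 with 68.3 RPKM. Slc7a7 (37.4 RPKM), a light chain that exports cationic amino acids, Slc1a5 (37.4 RPKM), a sodium-dependent exchanger of glutamine and other neutral amino acids, and Slc38a10 (36.7 RPKM) came next. Slc7a5 (14.2 RPKM), the light chain that takes up large neutral amino acids, Slc43a2 (9.43 RPKM), a uniporter of such amino acids, and Slc7a1 (7.25 RPKM), the main carrier of arginine and lysine in many cells, completed the first 10.

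The order was firm only in parts. In control libraries Slc38a4 lay at 225 to 275 RPKM, above Slc43a3 at 128 to 135 RPKM. In knockouts Slc38a4 stood at 109 and 156 RPKM, on both sides of Slc43a3 at 115 and 114 RPKM. Slc3a2, at 98.1 and 162 RPKM in knockouts and 90.6 to 117 RPKM in controls, overlapped with Slc43a3 in knockouts. Slc7a7, Slc1a5 and Slc38a10 overlapped with one another in both groups. The same 10 members were the highest when the longest annotated transcript was used as the length.

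**Figure D1:**
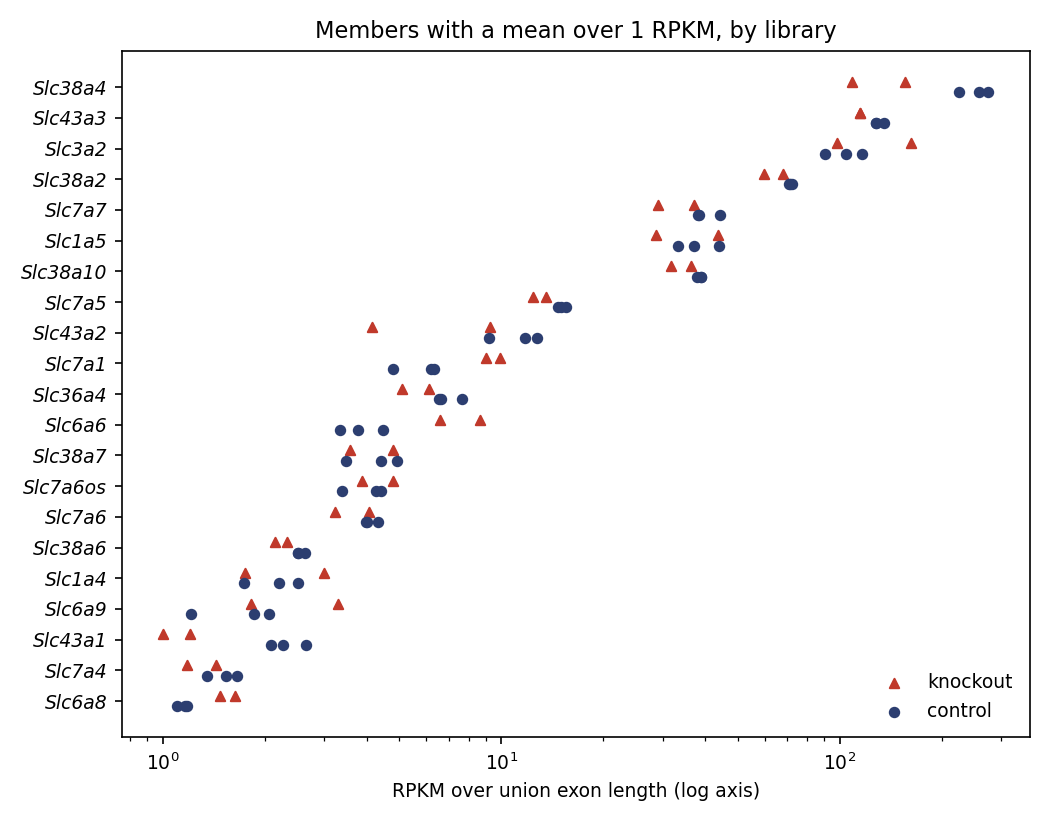
RPKM over union exon length (horizontal log axis) of the 21 members with a mean over 1 RPKM, in order of that mean, 1 point per library (triangles, 2 knockout libraries; circles, 3 control libraries). Slc38a4 leads with all control points between 225 and 275 RPKM, and its knockout points at 109 and 156 RPKM lie among those of Slc43a3 and Slc3a2.

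The 60 members together took 0.297% and 0.313% of all counts in knockouts 1 and 2, against 0.378%, 0.357% and 0.368% in controls. Their summed level was 559 and 671 RPKM in knockouts, against 761, 712 and 769 RPKM in controls, and in both measures the knockouts lay below all controls. Slc38a4 alone made up 19.5% and 23.3% of the summed RPKM in knockouts, against 31.6% to 36.2% in controls. Without Slc38a4 the summed level was 450 and 514 RPKM in knockouts, against 486, 487 and 511 RPKM in controls, and the groups overlapped. The share of counts without it was 0.250% and 0.249% in knockouts, against 0.260% in each control.

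Of the 60 members, 37 passed the filter on low counts, and 5 of the 37 differed between the groups at an adjusted p under 0.05. Slc6a6 and Slc7a1 rose in knockouts, and Slc38a1, Slc43a1 and Slc38a4 fell. Over all 15874 genes tested, 7.24% were called, 3.25% as higher and 3.99% as lower. The 5 called members are 13.5% of the 37, a share that rests on few genes. How it compared with all genes depended on the tool. DESeq2 called 2 of 35 members higher and 4 lower, beside 1203 higher and 1444 lower of 14925 genes. Calls by limma-voom were 2 higher and 3 lower of 37 members, beside 533 higher and 645 lower of 15874 genes. By edgeR without correction for the number of genes, 13 of the 37 had a p under 0.05, against 26.4% of all genes. The 37 had a median log2 fold change of -0.18, against -0.0015 over all genes, and 24 of the 37 were negative. The 2 knockout libraries lay on one side of all controls for 20 of the 37, against 45.4% of all genes.

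**Figure D2:**
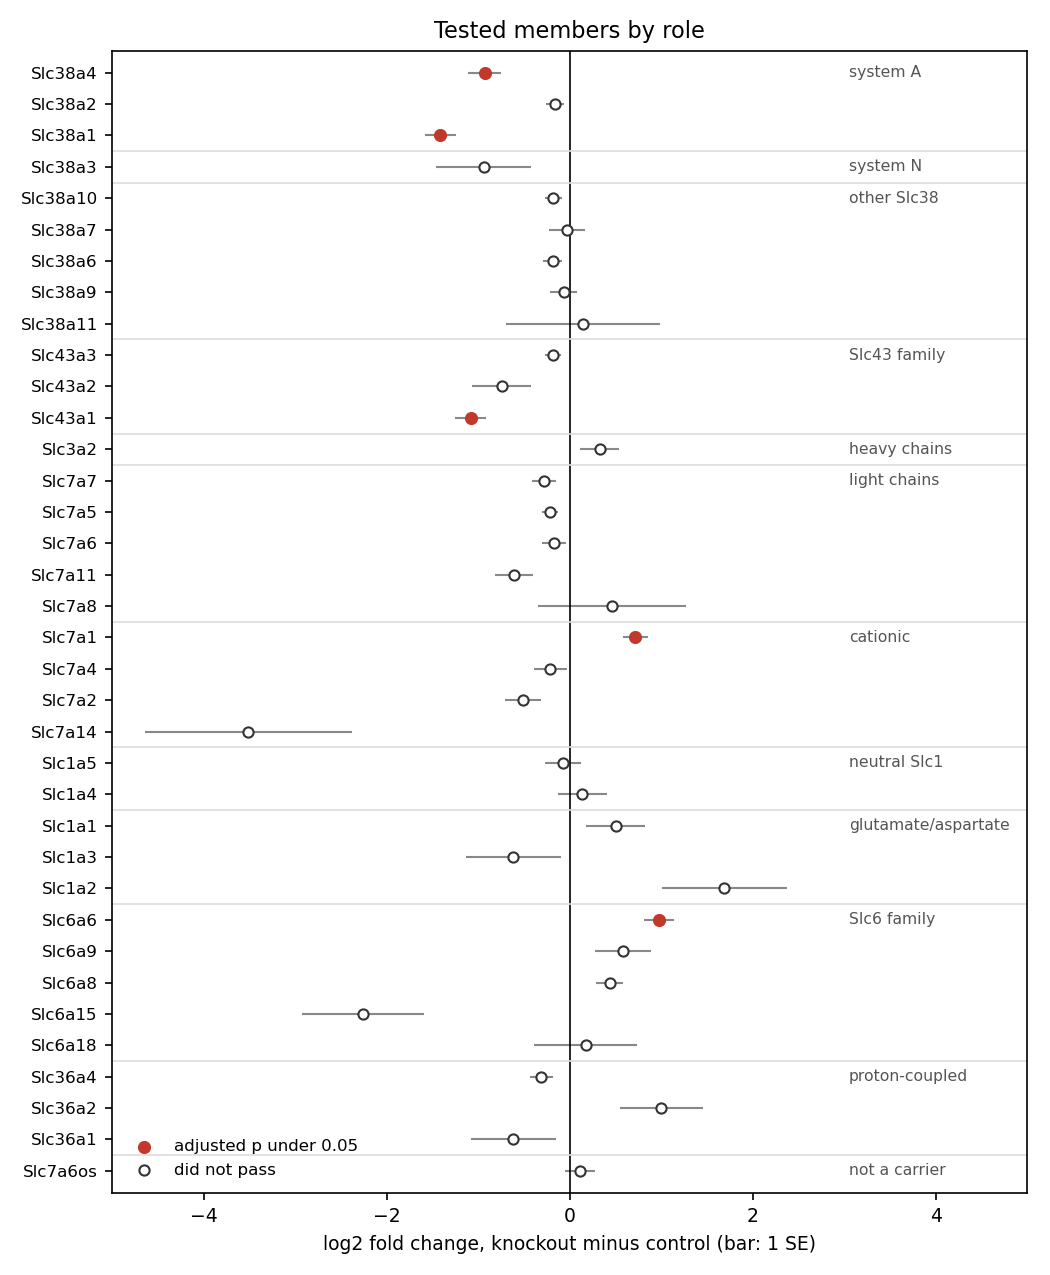
Log2 fold change, knockout minus control (horizontal axis, bars of 1 SE), of 36 of the 37 tested members, grouped by role. The 5 filled points passed the edgeR test over all genes; Slc38a1, Slc43a1 and Slc38a4 lie left of 0, at -1.42, -1.08 and -0.93, and Slc7a1 and Slc6a6 right of it, at 0.72 and 0.98.

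2 of the 3 system A carriers fell and 0 rose, with a median log2 fold change of -0.93. Over all genes tested, 3.99% were called as lower, and a list of 3 is short. Slc38a1 (SNAT1, ENSMUSG00000023169, chromosome 15, 96571418 to 96642913, minus strand, mm10) had 6.89 and 5.97 CPM in knockouts 1 and 2, against 19.1, 14.4 and 17.96 CPM in controls 1, 2 and 3. Both knockouts lay below all controls, with group means of 6.43 ± 0.650 CPM in knockouts (SD, n = 2) and 17.2 ± 2.46 CPM in controls (SD, n = 3). It fell by 1.42 on the log2 scale (SE 0.170), at an adjusted p of 0.013 by edgeR. The fall was -1.39 without control 3, where the call was lost (adjusted p = 0.075).

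Slc38a4 (SNAT4, ENSMUSG00000022464, chromosome 15, 96994820 to 97055956, minus strand) had 465 and 666 CPM in knockouts 1 and 2, against 1172, 960 and 1100 CPM in controls. The groups did not overlap, and knockout 1 was the lowest library. Group means were 565 ± 142 CPM in knockouts (SD, n = 2) and 1077 ± 108 CPM in controls (SD, n = 3), and it fell by 0.93 on the log2 scale (SE 0.177; edgeR, adjusted p = 0.031). The log2 fold change was -0.70 without knockout 1 and -1.22 without knockout 2, both still called. The call was lost without control 1 (-0.86), control 2 (-1.01) or control 3 (-0.92), at adjusted p of 0.090, 0.075 and 0.122 by edgeR.

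Slc38a2 (SNAT2), the system A carrier that many cells raise when amino acids are short, lies between these genes on chromosome 15 (96687392 to 96699730). It had 602 and 527 CPM in knockouts, against 629, 637 and 624 CPM in controls. The knockouts were lower by little, at a log2 fold change of -0.16 (SE 0.0995), and the difference did not pass (edgeR, adjusted p = 0.36). Slc38a1 and Slc38a2 are 44.5 kb apart with 0 protein-coding genes of the table between them.

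The makeup of system A is given here as a description with no test. Shares of the same sum are not independent, so a lower Slc38a4 by itself raises the share of Slc38a2, whose own level did not rise. The summed RPKM of the 3 system A carriers was 178 and 216 in knockouts 1 and 2, against 347, 298 and 330 in controls. Slc38a4 made up 61.4% and 72.3% of that sum in knockouts, against 75.5% to 79.2% in controls. Slc38a2 made up 38.3% and 27.6% in knockouts, against 20.5% to 24.2% in controls. Slc38a1 held under 1% of the sum in every library.

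**Figure D3:**
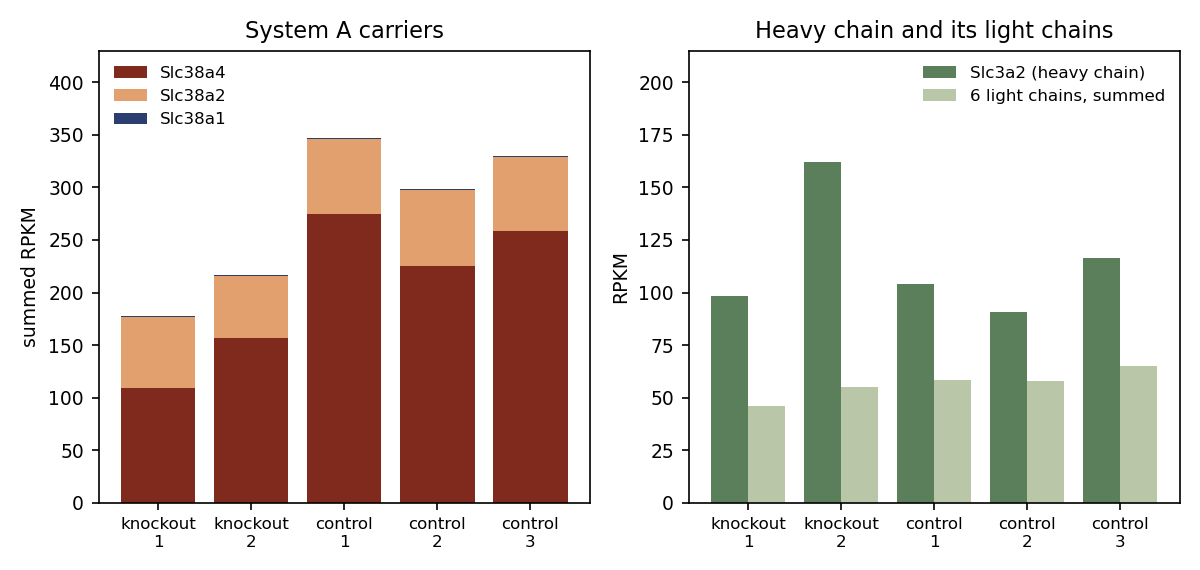
Left, RPKM of Slc38a4, Slc38a2 and Slc38a1 stacked per library; right, RPKM of the heavy chain Slc3a2 beside the summed RPKM of its 6 light chains. Bars start at 0 and each is 1 library, so there is no error bar; the system A sum is 178 and 216 in the 2 knockouts and 298 to 347 in the 3 controls, and Slc3a2 is highest in knockout 2, at 162 RPKM.

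None of the other Slc38 members that were tested passed. Of system N, which also carries glutamine, Slc38a3 had a log2 fold change of -0.94 (SE 0.517) at 1.08 and 0.430 CPM in knockouts and 0.943 to 1.94 CPM in controls, with overlapping groups. Slc38a5, the other system N member, had 1 to 5 reads in each library and was not tested. Slc38a9, the lysosomal carrier that signals arginine to mTORC1, had a log2 fold change of -0.066 (SE 0.144), at 9.64 and 8.49 CPM in knockouts and 8.76 to 10.2 CPM in controls. Slc38a10 (-0.18, SE 0.093), Slc38a6 (-0.19, SE 0.105), Slc38a7 (-0.030, SE 0.192) and Slc38a11 (0.15, SE 0.843) did not pass either.

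In the Slc43 family, the uniporter Slc43a1 (LAT3, ENSMUSG00000027075, chromosome 2, 84838850 to 84863594, plus strand), which carries leucine and other large neutral amino acids, fell in knockouts. It had 5.72 and 6.88 CPM in knockouts, against 12.0, 15.1 and 12.9 CPM in controls. The groups lay apart, at means of 6.30 ± 0.820 CPM in knockouts (SD, n = 2) and 13.3 ± 1.63 CPM in controls (SD, n = 3). The log2 fold change was -1.08 (SE 0.167; edgeR, adjusted p = 0.020). The call was lost without control 1 (-1.15, adjusted p = 0.051), control 2 (-0.98, adjusted p = 0.069) or control 3 (-1.11, adjusted p = 0.094), all by edgeR.

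Slc43a3, which lies 73.0 kb from Slc43a1 on the same strand, did not pass (-0.18, SE 0.089; edgeR, adjusted p = 0.24). It had 512 and 511 CPM in knockouts, against 570, 602 and 572 CPM in controls, so the knockouts were alike and lower by a narrow margin. Slc43a2 (LAT4), a close relative of Slc43a1, had 93.1 and 41.7 CPM in knockouts, against 128, 118 and 92.6 CPM in controls. The 2 knockouts differed by 2.23-fold, and the log2 fold change of -0.74 (SE 0.321) did not pass (edgeR, adjusted p = 0.20). It was -1.44 without knockout 1, where it passed (edgeR, adjusted p = 0.016), and -0.28 without knockout 2.

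Among the cationic amino acid carriers, Slc7a1 (CAT1, ENSMUSG00000041313, chromosome 5, 148327410 to 148399904, minus strand) rose. It had 115 and 104 CPM in knockouts, against 55.0, 72.8 and 71.6 CPM in controls. Both knockouts lay above all controls, with means of 109 ± 7.54 CPM in knockouts (SD, n = 2) and 66.5 ± 9.95 CPM in controls (SD, n = 3). The log2 fold change was 0.72 (SE 0.137; edgeR, adjusted p = 0.032). The call was lost without knockout 1 (0.64, adjusted p = 0.054) and without control 1 (0.60, adjusted p = 0.056), control 2 (0.79, adjusted p = 0.075) or control 3 (0.77, adjusted p = 0.107), all by edgeR.

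Slc7a2, the cationic carrier best known from macrophages and liver, had the opposite sign, at a log2 fold change of -0.51 (SE 0.197), and did not pass (edgeR, adjusted p = 0.16). It had 5.33 and 4.40 CPM in knockouts, against 7.82, 7.10 and 5.83 CPM in controls. Slc7a4 stood at -0.21 (SE 0.182). Slc7a14 had 1 and 1 reads in knockouts, against 4, 22 and 14 reads in controls, a fitted log2 fold change of -3.51 (SE 1.13) that did not pass (edgeR, adjusted p = 0.11). Nos3, the endothelial synthase that makes nitric oxide from arginine, had 194 and 216 CPM in knockouts, against 109, 160 and 128 CPM in controls, and did not pass (0.63, SE 0.160; edgeR, adjusted p = 0.061).

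In the Slc6 family, the taurine transporter Slc6a6 (ENSMUSG00000030096, chromosome 6, 91684053 to 91759066, plus strand) rose. It had 72.9 and 55.5 CPM in knockouts, against 28.1, 37.8 and 31.8 CPM in controls. Both knockouts lay above all controls, with means of 64.2 ± 12.3 CPM in knockouts (SD, n = 2) and 32.6 ± 4.90 CPM in controls (SD, n = 3). The log2 fold change was 0.98 (SE 0.162; edgeR, adjusted p = 0.023), with 0.76 without knockout 1 and 1.16 without knockout 2. The call was lost without control 1 (0.88, adjusted p = 0.067), control 2 (1.10, adjusted p = 0.053) or control 3 (0.96, adjusted p = 0.105), all by edgeR.

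Slc6a8, the creatine transporter, had 8.49 and 7.67 CPM in knockouts, against 5.72, 6.04 and 6.14 CPM in controls. Its groups did not overlap, but the log2 fold change of 0.44 (SE 0.147) did not pass (edgeR, adjusted p = 0.12). The glycine transporter Slc6a9 stood at 0.58 (SE 0.306), and 30.2% of its exon bases are shared with antisense genes, whose reads the library kit cannot separate. Slc6a15, a neutral amino acid carrier, had 20 and 6 reads in knockouts, against 120, 56 and 40 reads in controls. It did not pass by edgeR (-2.26, SE 0.669, adjusted p = 0.088) and did by DESeq2 (-2.26, adjusted p = 0.011), and by edgeR without knockout 1 (-3.43, adjusted p = 0.037). Slc6a18 stood at 0.18 (SE 0.563), on 10 to 15 reads a library. Of the 19 Slc6a members, 13 did not reach the filter on low counts.

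**Figure D4:**
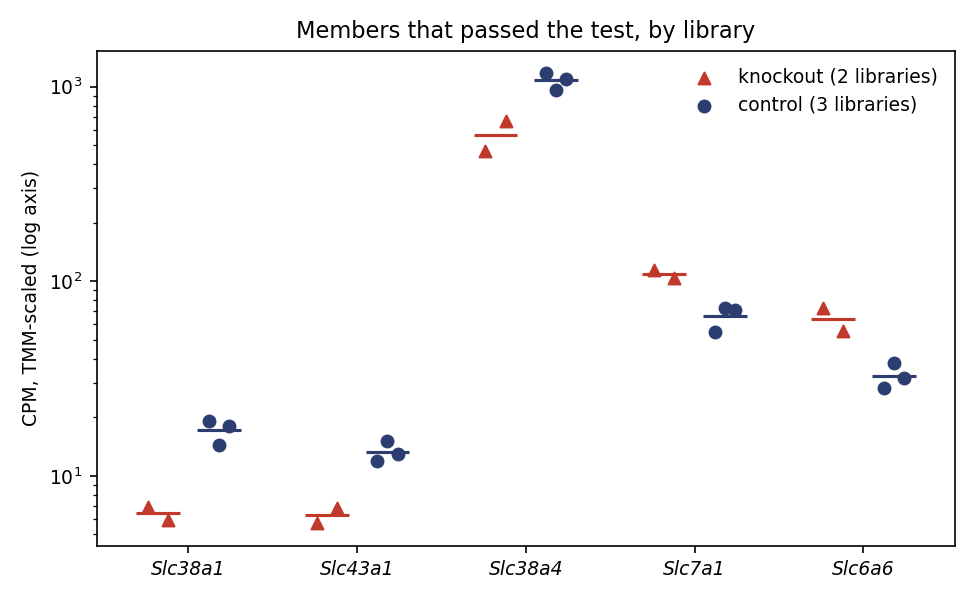
CPM (vertical log axis) of the 5 members that passed the test, 1 point per library (triangles, 2 knockouts; circles, 3 controls), with a bar at each group mean. For each gene both knockout points lie on one side of all control points, from 5.97 and 6.89 CPM for Slc38a1 to 465 and 666 CPM for Slc38a4.

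The heavy chain Slc3a2 and its light chains gave no call. Slc3a2 had 346 and 572 CPM in knockouts, against 367, 320 and 412 CPM in controls. Knockout 2 lay above all controls and knockout 1 among them, and the log2 fold change of 0.33 (SE 0.214) did not pass (edgeR, adjusted p = 0.38). It was 0.64 without knockout 1, where it passed (edgeR, adjusted p = 0.041), and -0.085 without knockout 2. The light chain Slc7a5 (LAT1) had 46.1 and 50.3 CPM in knockouts, against 55.6, 54.4 and 57.7 CPM in controls, a log2 fold change of -0.21 (SE 0.087; edgeR, adjusted p = 0.18). Slc7a7 (y+LAT1) had 96.4 and 123 CPM in knockouts, against 127, 127 and 147 CPM in controls (-0.29, SE 0.131; edgeR, adjusted p = 0.22). In both light chains the knockouts lay below all controls by a margin that did not pass.

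Slc7a11 (xCT), which takes up cystine for glutathione synthesis in exchange for glutamate, had 4.24 and 6.29 CPM in knockouts, against 8.27, 7.32 and 8.51 CPM in controls. It did not pass (-0.61, SE 0.209; edgeR, adjusted p = 0.12), and passed without knockout 2 (-0.93; edgeR, adjusted p = 0.032). Slc7a6 stood at -0.17 (SE 0.135). Slc7a8 (LAT2) was uneven within both groups, at 4.07 and 0.619 CPM in knockouts and 2.97, 0.817 and 1.29 CPM in controls. Slc7a10 had 0 reads in both knockouts and 3, 3 and 13 reads in controls, and was not tested.

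Per length, the heavy chain exceeded the sum of its 6 light chains (Slc7a5, Slc7a6, Slc7a7, Slc7a8, Slc7a10 and Slc7a11) in every library. The ratio of Slc3a2 to that sum was 2.14 and 2.93 in knockouts 1 and 2, against 1.78, 1.56 and 1.80 in controls, given as a description with no test. Slc7a7 made up 63.4% and 67.0% of the light chain sum in knockouts and 65.5% to 68.3% in controls, so the makeup of the light chains was close in both groups. Slc3a2 has partners outside this family, including integrin beta chains. The other heavy chain, Slc3a1, was not tested, with 16 and 0 reads in knockouts and 0, 7 and 2 reads in controls.

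The exchangers of the Slc1 family differed by less than their spread. Slc1a5 (ASCT2) had 119 and 183 CPM in knockouts, against 139, 155 and 184 CPM in controls, with overlapping groups and a log2 fold change of -0.078 (SE 0.197). Without a library it ranged from -0.42 to 0.19, so its sign is not set. Slc1a4 (ASCT1), the serine and alanine exchanger, stood at 0.14 (SE 0.263). The glutamate and aspartate carriers were at low level: Slc1a1, with 31.9% of its exon bases shared with a gene on the other strand, stood at 2.56 and 3.61 CPM in knockouts and 1.77 to 2.94 CPM in controls, and Slc1a2 at 1.11 and 1.20 CPM in knockouts and 0.112 to 0.693 CPM in controls. Neither passed (Slc1a1 0.50, SE 0.322; Slc1a2 1.69, SE 0.680), nor did Slc1a3 (-0.62, SE 0.521).

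Of the proton-coupled carriers, Slc36a4 was the most abundant, at 40.0 and 33.2 CPM in knockouts, against 42.7, 49.9 and 43.3 CPM in controls. Its difference did not pass (-0.31, SE 0.122; edgeR, adjusted p = 0.17). Slc36a1 (PAT1), the lysosomal member, had 2.90 and 0.980 CPM in knockouts, against 3.25, 3.38 and 2.27 CPM in controls. It did not pass (-0.62, SE 0.463), and passed without knockout 1 (-1.60; edgeR, adjusted p = 0.041). Slc36a2 had 3.34 and 2.08 CPM in knockouts, against 1.66, 0.673 and 1.73 CPM in controls, a log2 fold change of 1.00 (SE 0.452) that did not pass (edgeR, adjusted p = 0.22).

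The remaining 23 members did not reach the filter on low counts, and their highest count in any library was 23 reads. 1 of them, Slc6a21, had 0 reads in all 5 libraries, which allows up to 0.0422 to 0.0577 CPM per library (3 counts; counting error only). Most members of this group are known from neurons, kidney or gut.

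Genes of the amino acid response were read from lists chosen with earlier results of these data known. Of 25 genes of the integrated stress response, the pathway that ATF4 leads, 2 rose and 1 fell, or 12% of the list against 7.24% of all genes tested, and their median log2 difference was 0.10. The transcription factor gene Cebpb had 522 and 568 CPM in knockouts, against 354, 344 and 369 CPM in controls (0.62, SE 0.092; edgeR, adjusted p = 0.020). Trib3, an ATF4 target that restrains AKT, had 13.3 and 7.41 CPM in knockouts, against 4.03, 4.76 and 3.70 CPM in controls (1.31, SE 0.264; edgeR, adjusted p = 0.036). Sesn2, a leucine sensor that restrains mTORC1, fell, with 25.1 and 31.6 CPM in knockouts, against 60.1, 44.8 and 46.4 CPM in controls (-0.83, SE 0.167; edgeR, adjusted p = 0.036). Atf4 itself stood at 0.18 (SE 0.120), Asns, a classic ATF4 target, at 0.61 (SE 0.176; edgeR, adjusted p = 0.083) and Ddit3 at 0.10 (SE 0.160); these 3 were picked out after their values were seen.

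Of 34 genes of lysosomal amino acid sensing, 2 rose and 1 fell, with a median of 0.024. The 3 are 8.82% of the list, near the 7.24% called over all genes. Rraga, the RagA GTPase that recruits mTORC1 to the lysosome, had 58.6 and 55.1 CPM in knockouts, against 32.3, 33.9 and 36.0 CPM in controls (0.74, SE 0.090; edgeR, adjusted p = 0.013). Castor1, the cytosolic arginine sensor, had 21.4 and 14.97 CPM in knockouts, against 9.70, 10.9 and 9.95 CPM in controls (0.83, SE 0.171; edgeR, adjusted p = 0.038). Depdc5, a subunit of the GATOR1 complex that inactivates RagA, fell, with 8.38 and 10.3 CPM in knockouts, against 14.5, 16.6 and 14.5 CPM in controls (-0.70, SE 0.148; edgeR, adjusted p = 0.041).

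Of 20 cytosolic aminoacyl-tRNA synthetases, 1 rose and 0 fell, with a median of 0.10, so 5% were called, against 7.24% of all genes. Sars, the enzyme that charges serine tRNA, had 91.4 and 86.7 CPM in knockouts, against 72.3, 64.6 and 66.3 CPM in controls (0.39, SE 0.089; edgeR, adjusted p = 0.047). Further lists held 27 tested enzymes of amino acid metabolism, 13 of serine, glycine, proline and one-carbon metabolism and 15 amino acid transporters of other families. By edgeR 0 of these passed, and 9, 3 and 2 had an unadjusted p under 0.05, against 26.4% of all genes. Calls by limma-voom were 0 as well. DESeq2 called 3 of 25, 1 of 13 and 1 of 14 that it tested, beside 1203 higher and 1444 lower of 14925 genes. Among the genes of these lists, Glul, which makes glutamine, stood at 0.38 (SE 0.099, edgeR, adjusted p = 0.063). The mitochondrial aspartate-glutamate carrier Slc25a13 stood at -1.20 (SE 0.303; edgeR, adjusted p = 0.061).

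The calls of these named genes also rested on the full set of libraries. Without control 3, Cebpb (0.64), Trib3 (1.23), Sesn2 (-0.89), Rraga (0.78), Castor1 (0.81), Depdc5 (-0.74) and Sars (0.38) each lost their call by edgeR, and without control 2 they did so too. Without control 1, Rraga kept its call and the other 6 lost theirs. Without knockout 1, Cebpb and Rraga kept theirs, and Trib3 (0.83), Castor1 (0.55), Sesn2 (-0.68), Depdc5 (-0.57) and Sars (0.35) lost theirs. With an offset for the length and GC content of exons, Cebpb (0.42), Castor1 (0.66), Depdc5 (-0.49) and Trib3 (1.15) also lost theirs, as did Castor1 (0.84) and Sars (0.40) when libraries were scaled by their totals alone.

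**Figure D5:**
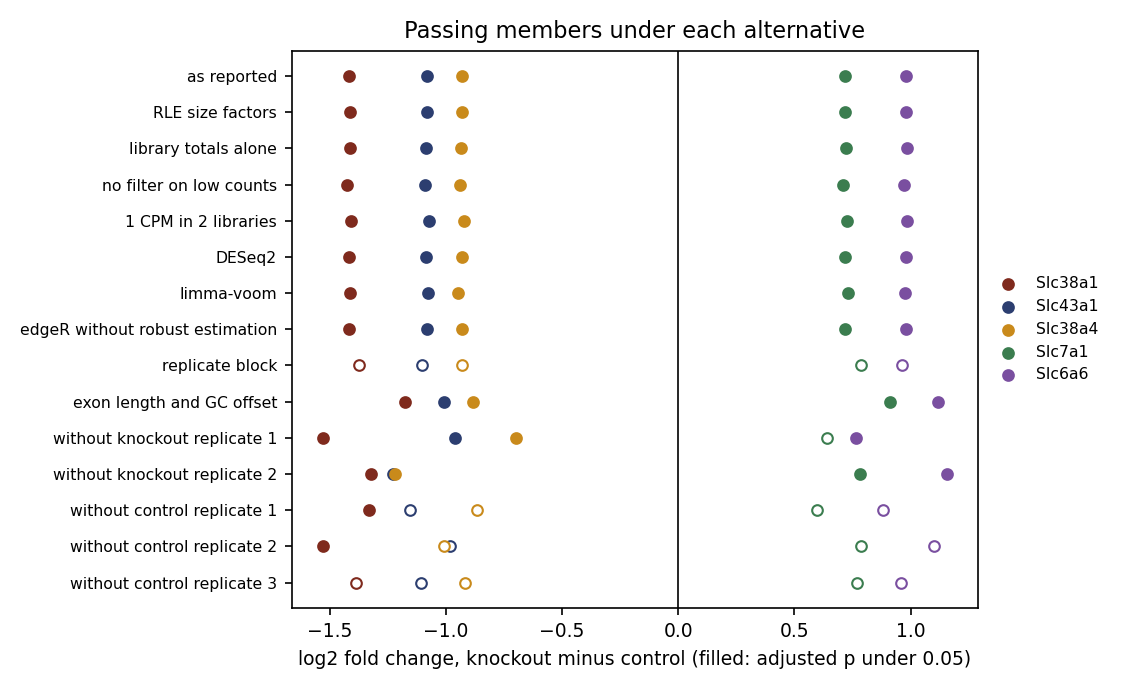
Log2 fold change, knockout minus control (horizontal axis), of the 5 members that passed, under each alternative processing (rows); filled points have an adjusted p under 0.05 and open points do not. All points of a gene keep its sign, from -1.53 to -1.18 for Slc38a1 and from 0.60 to 0.91 for Slc7a1, and most open points are in fits that leave out a control library or add the replicate block.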

How the data were processed

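Libraries were prepared from sorted LECs with SMART-Seq v4 and Nextera XT, per the labels' protocols; this chemistry marks no strand, and amplified reads are not independent molecules. The authors deposited raw read counts for each Ensembl gene. TopHat2 2.0.14, Bowtie2 2.1.0, HTSeq 0.6.1 and mm10 are named in the submitters' processing notes. How multi-mapped reads were handled, and which annotation was counted, is not given in the sources used here.

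27648 of 27843 identifiers matched GENCODE M21 (mm10), which gave symbols, types, positions and exon lengths. Counts were tested on the whole table in R 4.3.3 with edgeR 4.0.16: filterByExpr (minimum count 10), TMM, robust quasi-likelihood F test, Benjamini-Hochberg adjustment over 15874 genes, threshold 0.05. Differences are given as knockout minus control on the log2 scale, and SE is the size of that difference over the square root of F. The test was tried on simulated counts first. DESeq2 1.42.0 and limma 3.58.1 (voom) were alternatives, with other scaling, filters, a length and GC offset, a replicate block and each library left out.

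Members that passed and the 10 with the highest mean RPKM are given in full, with up to 4 genes of each list. Members and lists were chosen with earlier results of these data known. The longest-transcript length was added after seeing the data. 1 tested member and 1 marker list are not reported here.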

Additional observations from a re-analysis of the deposited data

How the results depend on the processing

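Direction held for all 5 called transporters under the 14 alternatives run: Slc38a1 ranged from -1.53 to -1.18, Slc43a1 from -1.23 to -0.96, Slc38a4 from -1.22 to -0.70, Slc6a6 from 0.76 to 1.16 and Slc7a1 from 0.60 to 0.91. All 5 were called under other scaling, filters and tools, and with the length and GC offset. With 1 library left out, edgeR called 0 to 3 members higher and 0 to 6 lower, and 2 to 784 genes higher and 9 to 1125 lower over the whole table. The fewest calls came without control 3, where 0 members were called and 8 had an unadjusted p under 0.05. Where 1 knockout remained, it was assumed to vary as the controls do; without knockout 1, Slc3a2, Slc43a2, Slc36a1 and Slc6a15 gained a call. With the replicate number as a block, edgeR called 0 members and 0 genes in either direction, with 10 members and 2808 genes at an unadjusted p under 0.05, and the 5 members stood at adjusted p 0.087 to 0.167. Deviations of same-numbered libraries from their group means correlated at 0.048 and -0.052, which gave no sign that the numbers pair libraries. Deviations of the knockout libraries mirror each other, so these values are not separate checks and cannot settle pairing. In the block fit, control 3 has no knockout of the same number and adds nothing to the group difference. DESeq2 called 1203 genes higher and 1444 lower, against 516 and 634 by edgeR; the cause was not tested. The offset for length and GC content left 408 higher and 330 lower genes, and the higher ones made up 55.3% of all calls, against 44.9% without it. Slc1a5 turned to 0.0072 under the block and ranged from -0.42 to 0.19 with 1 library left out, and Slc3a2 ranged from -0.085 to 0.64. 23 members had too few reads to test.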

Other observations

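A few members with low counts had most of their reads in 1 library. Slc6a19, the neutral amino acid carrier of kidney and gut epithelium, had 23 and 0 reads in knockouts 1 and 2 and 0, 1 and 0 reads in controls. Slc3a1 had 16 and 0 reads in knockouts and 0, 7 and 2 reads in controls, and its partner Slc7a9 had 9 and 0 reads in knockouts and 6, 0 and 0 reads in controls. Slc6a3, the dopamine transporter, had 20 and 0 reads in knockouts and 0, 1 and 7 reads in controls, while Slc6a16 had 0 reads in both knockouts and 0, 20 and 0 reads in controls. Not all members known from kidney or gut shared this. Slc6a18 had 11 and 15 reads in knockouts and 10, 15 and 12 reads in controls. Slc6a20b had 2 and 0 reads in knockouts and 1, 2 and 5 reads in controls. Further members did have most reads in 1 library. Slc6a12 had 0 reads in both knockouts and 0, 10 and 0 reads in controls, and Slc7a13 had 0 in both knockouts and 1, 4 and 0 in controls. The first 5 genes were picked out after their values were seen, and none reached the filter on low counts with all libraries. Without knockout 2, Slc6a19 was tested and called higher by edgeR, on the reads of 1 knockout library.

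Several members were uneven within a group, which need not exceed their difference between groups. The knockout libraries lay over 2-fold apart for 8 of the 37 tested members, among them Slc7a8 (6.58-fold), Slc36a1 (2.96-fold) and Slc43a2 (2.23-fold), each higher in knockout 1. The controls spanned over 2-fold for 8 members as well, among them Slc1a2 (6.18-fold) and Slc7a8 (3.64-fold).

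Around the Slc38 genes on chromosome 15, neighbours that are no amino acid carriers did not pass: Scaf11 stood at -0.15 (SE 0.120), Arid2 at -0.44 (SE 0.173) and Amigo2 at 0.0045 (SE 0.120).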
